A study of Homo sapiens with 20 samples.

Results

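Of the 57500 genes counted in each library, 10 encode the protein kinases that phosphorylate eIF2α, eIF2α itself, the regulatory subunits of its phosphatases, or direct regulators of the kinases. They were named by symbol: EIF2AK1, EIF2AK2, EIF2AK3, EIF2AK4, EIF2S1, PPP1R15A, PPP1R15B, GCN1, IMPACT and DELE1. The question addressed is whether a kinase other than GCN2, or a phosphatase subunit, differed in mRNA in cells without GCN2. RNA was sequenced from NTERT cells, a human keratinocyte line immortalized with telomerase that forms epithelial sheets in culture. WT cells carried a control guide RNA, and GCN2KO cells were an early-passage pool edited by CRISPR/Cas9 at EIF2AK4, the gene of GCN2, in the exon for the RWD domain or for the kinase domain; which of the guides gave the sequenced pool was not given in the sources used here. Cells of both genotypes were maintained in low calcium medium, and the study's protocol for high-density wounding (HDW) first differentiates the confluent sheet with serum and added calcium. Cultures were either left unwounded or harvested 6 h after HDW, in which pipet tips drawn across the sheet leave a grid of scratches. Each of the 4 groups, by genotype and wounding, had 5 replicates. Whether these came from separately edited pools was not given in the sources used here, and the p-values measure the spread between these samples.

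The eIF2 kinases share a catalytic domain and a substrate, the α subunit of the translation initiation factor eIF2, and differ in the signal that activates them. HRI (EIF2AK1) responds to heme loss and, through DELE1, to mitochondrial stress, PKR (EIF2AK2) to double-stranded RNA, PERK (EIF2AK3) to unfolded protein in the endoplasmic reticulum (ER), and GCN2 (EIF2AK4) to uncharged tRNA and stalled ribosomes. Phosphorylated eIF2α lowers bulk translation and favors that of ATF4 and other stress mRNAs, a program termed the integrated stress response (ISR). Protein phosphatase 1 reverses the phosphorylation when bound to GADD34 (PPP1R15A), whose mRNA is itself induced by the ISR, or to CReP (PPP1R15B), which is made constitutively. GCN1 binds GCN2 on the ribosome and is needed for its activation, and IMPACT competes with GCN2 for GCN1.

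The residue on which the family acts is serine 52 of the EIF2S1 open reading frame when the initiator methionine is counted. Its codon lies at chr14:67364921-67364923 (GRCh38, plus strand), in exon 2 of 8 of the reference transcript. The 33 coding bases of chr14:67364906-67364938 that cover codons 47 to 57 are shown because all 4 kinases and both phosphatase complexes meet at this site, with the serine codon in capitals.
EIF2S1, codons 47 to 57: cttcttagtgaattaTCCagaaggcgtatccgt

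Promoters of EIF2AK3, PPP1R15A and PPP1R15B, whose mRNA was higher in GCN2KO cells in both conditions, and of EIF2AK2, whose mRNA varied with that of interferon-induced genes, are given from RefSeq (GRCh38.p14), with 250 bases before and 50 after the annotated start. Of the 10 genes 9 were found in that table, the exception being EIF2AK1. Capitals mark the interferon-stimulated element (GAAA, any 2 bases, GAAA) in EIF2AK2, CCAAT or its reverse complement in EIF2AK3, TGACGTCA, the cAMP response element, in PPP1R15A, and TGATGNAA, the ATF4-C/EBP element, in PPP1R15B, each searched on both strands. None of the marked matches overlaps another. The promoter of EIF2S1, whose mRNA was also higher in GCN2KO cells in both conditions, had no match to these elements and is not shown.
EIF2AK2, chr2:37156931-37157230, minus strand: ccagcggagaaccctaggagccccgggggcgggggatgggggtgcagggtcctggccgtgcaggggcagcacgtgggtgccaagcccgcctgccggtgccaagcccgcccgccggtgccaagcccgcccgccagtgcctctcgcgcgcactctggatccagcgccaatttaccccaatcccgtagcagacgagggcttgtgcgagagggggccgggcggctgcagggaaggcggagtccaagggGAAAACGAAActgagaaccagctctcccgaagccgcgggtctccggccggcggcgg
EIF2AK3, chr2:88627415-88627714, minus strand: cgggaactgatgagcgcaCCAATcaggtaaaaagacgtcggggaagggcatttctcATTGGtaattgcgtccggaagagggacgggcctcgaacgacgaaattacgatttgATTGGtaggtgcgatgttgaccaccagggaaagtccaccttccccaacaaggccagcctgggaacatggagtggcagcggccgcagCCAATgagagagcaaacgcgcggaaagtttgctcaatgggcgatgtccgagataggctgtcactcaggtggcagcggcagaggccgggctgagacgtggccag
PPP1R15A, chr19:48872171-48872470, plus strand: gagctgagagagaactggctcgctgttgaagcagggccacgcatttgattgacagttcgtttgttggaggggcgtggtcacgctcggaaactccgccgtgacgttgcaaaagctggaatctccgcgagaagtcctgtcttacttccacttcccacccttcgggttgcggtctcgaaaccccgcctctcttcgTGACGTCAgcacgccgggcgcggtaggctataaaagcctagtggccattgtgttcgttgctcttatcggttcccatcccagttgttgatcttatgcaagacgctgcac
PPP1R15B, chr1:204411768-204412067, minus strand: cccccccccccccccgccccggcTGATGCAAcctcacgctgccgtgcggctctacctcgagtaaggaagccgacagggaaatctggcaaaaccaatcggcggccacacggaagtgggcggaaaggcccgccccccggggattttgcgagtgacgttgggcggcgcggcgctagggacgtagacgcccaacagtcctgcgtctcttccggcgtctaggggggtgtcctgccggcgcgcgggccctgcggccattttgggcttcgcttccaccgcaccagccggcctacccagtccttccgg

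The interferon-stimulated element began 6 bases before the start of EIF2AK2 and was in 1 of the 9 promoters, against 3.57% of all 35116 promoters in the table. PPP1R15A held the cAMP response element 58 bases before its start (1 of 9, against 1.85%), and PPP1R15B held TGATGCAA 227 bases before its start (1 of 9, against 3.62% for TGATGNAA). CCAAT occurred 4 times in EIF2AK3 and at least once in 4 of 9 promoters, those of EIF2AK2, EIF2AK3, PPP1R15B and DELE1, against 34.6% of all. The AP-1 element TGANTCA was in EIF2AK4 alone of the 9, 212 bases before the start, against 7.71%. These are matches of letters in a window and were not tested for binding.

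The libraries held 14083504 to 34611570 counts on genes, and each member had enough counts to be tested in every comparison. Values below are normalized read counts, which are counts scaled by TMM factors to the mean effective library size of the 20 libraries. Differences are log2 fold changes from edgeR's quasi-likelihood test on all genes, with p-values adjusted over all of them. A member passed at an adjusted p of at most 0.05, and was a DE gene where the log2 fold change was also at least 1 in size. Basal keratinocyte markers (KRT5, KRT14, TP63, ITGA6, ITGB4 and DSG3) summed to at least 404249.8 normalized read counts in each library. Of fibroblast, endothelial and immune markers, 4 of 5, at least 3 of 4 and 3 of 4 averaged under 10 in each group. The exceptions were COL1A1 (group means of 736.0 to 892.2), KDR (up to 20.99) and CD74 (148.8 to 210.3). CD74 was lower in GCN2KO than in WT cells, unwounded (-0.48, edgeR adjusted p = 0.00295) and after HDW (-0.48, edgeR adjusted p = 0.000192). COL1A1 was lower in unwounded GCN2KO cells (-0.27, edgeR adjusted p = 0.0114) and did not pass after HDW. RNA was taken from whole cultures, so fewer cells of a kind and less RNA per cell cannot be told apart.

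Between GCN2KO and WT unwounded cells, 9 of the 10 members passed, against a background of 66.5% of the 15348 genes tested. EIF2AK1, EIF2AK3, EIF2S1, PPP1R15A and PPP1R15B were higher in GCN2KO cells (5 of 10, against 33.4%), and EIF2AK2, EIF2AK4, IMPACT and DELE1 lower (4 of 10, against 33.1%). Only EIF2AK4 and PPP1R15A were DE genes (2 of 10, against 16.4%). EIF2AK4 is the edited gene, so its call does not bear on the question about the other members. Of the 9 others, 8 passed, 5 as higher and 3 as lower, and 1 was a DE gene. The groups did not overlap in 8 members, EIF2AK4 among them, as in 53.3% of all genes tested. The 9 members other than EIF2AK4 had a median absolute log2 fold change of 0.40, beside 0.42 over all genes, so the members moved about as much as the rest of the transcriptome. Of markers of differentiating keratinocytes (KRT1, KRT10, IVL, DSG1 and SPRR1B), 2 of the 4 tested were higher and 1 lower in unwounded GCN2KO cells. Their sum was 5778.0 to 10980.3 normalized read counts in WT and 13183.2 to 24370.3 in GCN2KO libraries, mostly through IVL (involucrin), which averaged 3126 in WT and 11070.0 in GCN2KO unwounded cells and 4464 and 17350.0 after HDW. KRT1 had few counts, with group means of 22.42 and 20.22 in WT and 11.18 and 11.24 in GCN2KO cells, unwounded and after HDW. It was lower in GCN2KO cells unwounded (-1.06, edgeR adjusted p = 0.00179) and, with overlap, after HDW (-0.83, edgeR adjusted p = 0.0214). KRT10 overlapped in both conditions and passed as higher in GCN2KO cells after HDW (0.28, edgeR adjusted p = 0.0321). SPRR1B averaged 2235 in WT and 3423 in GCN2KO unwounded cells, without overlap (0.62, edgeR adjusted p = 9.59e-05). After HDW SPRR1B averaged 3939 in WT and 3846 in GCN2KO cells. DSG1 averaged under 10. Markers of melanocytes summed to 130.4 to 209.4 in WT and 345.6 to 642.0 in GCN2KO libraries; 1 of 3 tested (MITF) was higher in unwounded and 2 of 3 in HDW GCN2KO cells, TYR was at 0 in each library and DCT averaged under 10. Of the 6 basal markers, 4 were lower and 1 higher in GCN2KO cells in both conditions. The part of these markers in the results below was not tested.

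After HDW, 6 of 10 members passed between GCN2KO and WT, against 71.7% of 15855 genes. EIF2AK3, EIF2S1, PPP1R15A and PPP1R15B were higher (4 of 10, against 35.9%), EIF2AK4 and IMPACT lower (2 of 10, against 35.8%), and EIF2AK4 was the only DE gene (1 of 10, against 14.9%). Without the edited gene EIF2AK4, 5 of 9 members passed and 0 of 9 were DE genes. HDW in WT cells raised EIF2AK3, EIF2S1, PPP1R15A, PPP1R15B and GCN1 (5 of 10, against 26.1%) and lowered EIF2AK2 and DELE1 (2 of 10, against 25.2%), a total of 7 of 10 against 51.3%; with library size alone as the scaling, EIF2AK1, EIF2AK4 and IMPACT also passed, as lower. In GCN2KO cells HDW raised PPP1R15B and GCN1 (2 of 10, against 11.9%) and lowered EIF2AK1 and IMPACT (2 of 10, against 10.8%), a total of 4 of 10 against 22.7%. That count ran from 1 to 4 with 1 library left out, and was 2 with no filter on low counts. No member was a DE gene for HDW in either genotype, where 4.17% and 0.671% of genes were, although PPP1R15A in WT passed the fold threshold without WT HDW replicate 1 or 4. The difference between the genotypes in the response to HDW (the interaction) passed in 3 of 10 members, against 23.7% of 16536 genes (11.2% positive and 12.5% negative). It was negative for EIF2AK3 and PPP1R15A, which HDW raised in WT, and positive for DELE1, which HDW lowered in WT. In GCN2KO cells the HDW response did not pass in any of the 3. None of the 3 interactions reached a size of 1, as 3.31% of genes did. GCN2KO against WT unwounded and HDW in WT use the same WT unwounded samples, and likewise for the other groups, so fold changes of adjoining comparisons are not independent.

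**Figure D1:**
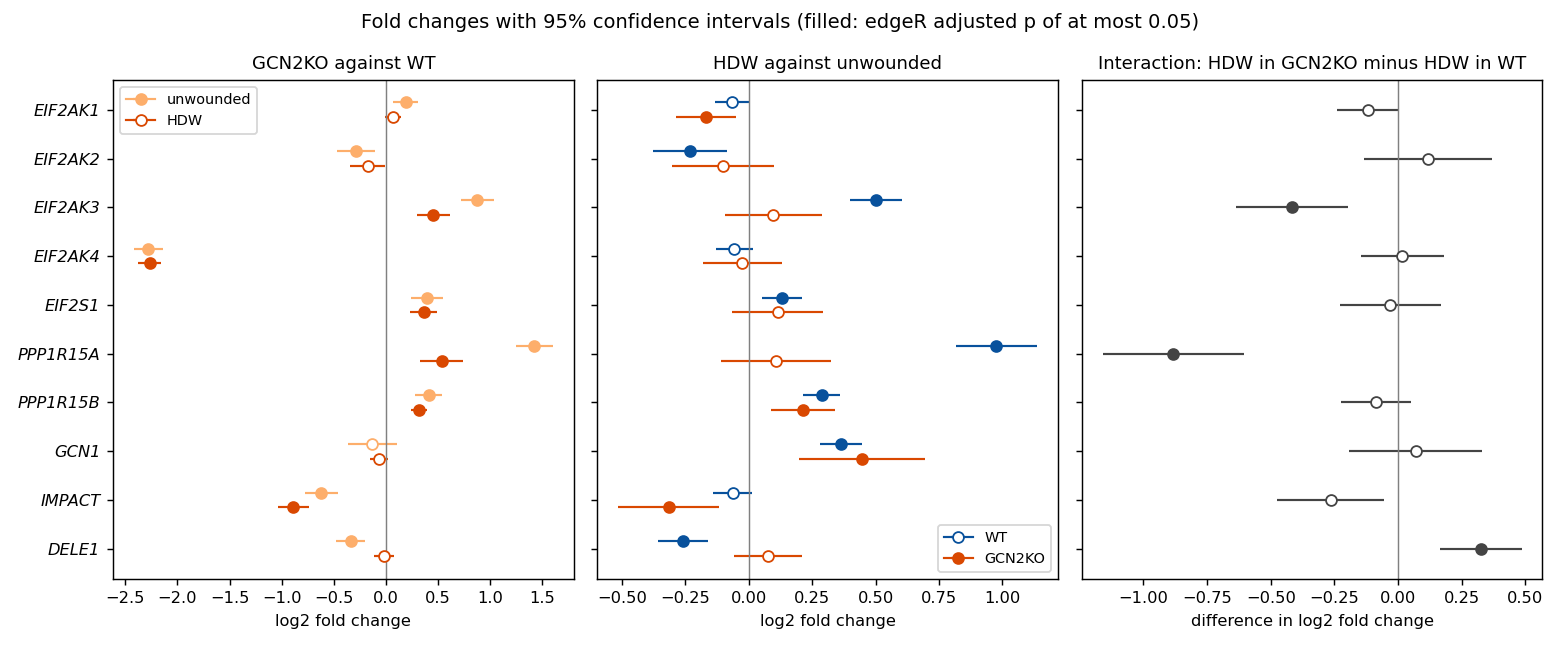
Log2 fold changes (x axis) of the 10 genes (rows) for GCN2KO against WT, for HDW against unwounded, and for the interaction, with 95% confidence intervals; filled points passed at an edgeR adjusted p of at most 0.05 and open points did not. EIF2AK4 stands at -2.28 and -2.27 in the left panel, PPP1R15A at 1.42 in unwounded cells, and PPP1R15A, EIF2AK3 and DELE1 are the filled points of the right panel, at -0.88, -0.42 and 0.32.

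The targeted kinase mRNA, EIF2AK4 (ENSG00000128829, chromosome 15), was read first as a check of the labels. WT unwounded samples had 4403.8, 4152.3, 4555.1, 4286.8 and 4378.9 normalized read counts and GCN2KO unwounded samples 806.0, 859.9, 935.0, 906.1 and 961.6. After HDW the values were 3980.2 to 4302.8 in WT and 809.8 to 951.3 in GCN2KO. Every GCN2KO sample was below every WT sample, at 0.206 and 0.208 times the WT level, and the mRNA was reduced and not absent. The HDW difference in EIF2AK4 did not pass in WT (log2 fold change -0.06, 95% interval -0.13 to 0.02, edgeR adjusted p = 0.177) or in GCN2KO cells (-0.03, -0.18 to 0.13, edgeR adjusted p = 0.829). With library size alone as the scaling, the WT difference was -0.0961 and passed (edgeR adjusted p = 0.0328).

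**Figure D2:**
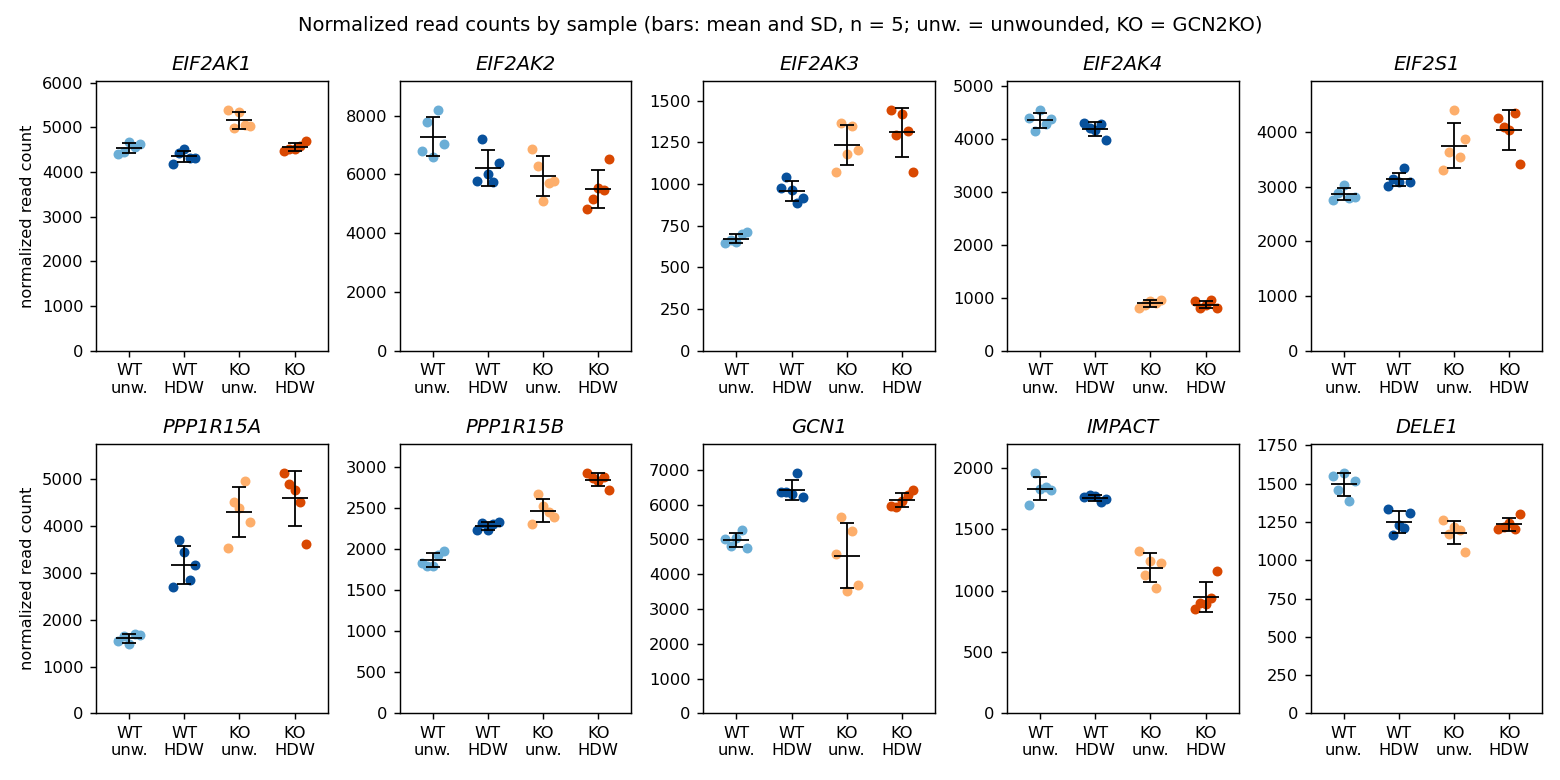
Normalized read counts (y axis, from 0) of each of the 10 genes in the 20 samples, with WT in blue, GCN2KO in orange, HDW in the darker shade and replicates 1 to 5 from left to right within a group; bars give the mean and SD of 5 samples. EIF2AK4 drops from at least 3980.2 in WT to at most 961.6 in GCN2KO, and the PPP1R15A samples of WT unwounded cells, at 1474.5 to 1692.8, lie below those of the other groups.

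PERK mRNA (EIF2AK3, ENSG00000172071, chromosome 2) was the kinase mRNA that rose most where GCN2 was lost. WT unwounded samples had 645.9, 663.8, 649.7, 697.7 and 710.4 normalized read counts, and GCN2KO unwounded samples 1073.2, 1364.2, 1182.3, 1346.5 and 1204.8. The groups did not overlap, and the log2 fold change was 0.87 (SE 0.074, edgeR adjusted p = 3.54e-08), or 1.83-fold. HDW brought WT cells to 976.2, 1041.4, 966.3, 887.4 and 918.5, above each unwounded WT sample and below each unwounded GCN2KO sample (log2 fold change for HDW 0.50, SE 0.049, edgeR adjusted p = 5.86e-07). GCN2KO cells after HDW had 1445.4, 1292.5, 1421.6, 1320.7 and 1072.6, which overlapped the unwounded GCN2KO samples, replicate 5 being the lowest. The HDW response in GCN2KO cells was 0.10 with a 95% interval of -0.09 to 0.29 (edgeR adjusted p = 0.449). GCN2KO cells thus responded less to HDW than WT cells, with an interaction of -0.42 (SE 0.11, edgeR adjusted p = 0.00584), and the genotypes still differed after HDW (0.45, SE 0.074, edgeR adjusted p = 7.5e-05). EIF2AK3 shares 3.77% of its exon bases with a lncRNA on the opposite strand, and the counting is not stated to use strand.

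HRI mRNA (EIF2AK1, ENSG00000086232, chromosome 7) differed little. Unwounded WT cells averaged 4541 ± 113 normalized read counts (SD, n = 5) and unwounded GCN2KO cells 5158 ± 187, the highest WT sample being 4669.9 and the lowest GCN2KO sample 4987.9. The log2 fold change was 0.19 (SE 0.056, edgeR adjusted p = 0.00723), and did not pass when genes of low count were kept in (edgeR adjusted p = 0.0748). After HDW the groups overlapped, at 4178.8 to 4521.6 in WT and 4472.9 to 4690.7 in GCN2KO (0.07, 95% interval -0.01 to 0.14, edgeR adjusted p = 0.103; 0.0255 with library size alone). HDW lowered EIF2AK1 in GCN2KO cells by a small step (-0.17, SE 0.055, edgeR adjusted p = 0.0391). That call was lost without any 1 of GCN2KO unwounded replicates 1, 3 and 5 or GCN2KO HDW replicates 1 to 4, with edgeR adjusted p up to 0.0983, and with no filter on low counts (0.14). EIF2AK1 shares 9.69% of its exon bases with AIMP2, a gene on the opposite strand.

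PKR mRNA (EIF2AK2, ENSG00000055332, chromosome 2) went the other way, and with the widest relative spread of the 4 kinases among WT unwounded samples. WT unwounded samples had 6806.4, 7780.0, 6599.6, 8191.7 and 7043.1 normalized read counts, and GCN2KO unwounded samples 6866.7, 6280.1, 5079.2, 5707.1 and 5764.7. GCN2KO replicate 1 lay within the WT range and the other 4 below it, and the log2 fold change was -0.29 (SE 0.086, edgeR adjusted p = 0.00692). HDW lowered EIF2AK2 in WT cells to 5730.0 to 7190.6, again with overlap (-0.23, SE 0.068, edgeR adjusted p = 0.0102). GCN2KO HDW samples spanned 4829.9 to 6523.6, and their difference from WT HDW did not pass (-0.18, 95% interval -0.35 to -0.01, edgeR adjusted p = 0.0585). It passed without WT HDW replicate 1 (edgeR adjusted p = 0.0436), WT HDW replicate 4 (0.0403) or GCN2KO HDW replicate 5 (0.00293), and with no filter on low counts (0.0123). EIF2AK2 shares 3.95% of its exon bases with ARL14EPP1 and GPATCH11, genes on the opposite strand. The genes whose log2 CPM over the 20 samples was most like that of EIF2AK2, by Pearson's r among 16536 genes, were DTX3L (0.961), OAS2 (0.953) and MX1 (0.95), all known as interferon-induced; the samples share genotype and treatment, and r is given as a description.

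Levels of different kinases were compared per length, as CPM (reads scaled to the effective library size) per kb of merged exons. In WT unwounded cells the order was EIF2AK1 (28.8 ± 0.716, SD, n = 5), EIF2AK2 (23.0 ± 2.13), EIF2AK4 (12.6 ± 0.432) and EIF2AK3 (1.13 ± 0.0488), with no overlap between neighbors. In GCN2KO unwounded cells EIF2AK4, at 2.59 ± 0.179, came next to EIF2AK3, at 2.08 ± 0.204, and after HDW these last 2 overlapped. The order depends on the length used. EIF2AK3 has 20691 merged exon bases and 4724 in its longest transcript, and EIF2AK4 11988 and 5538. Per kb of longest transcript EIF2AK4 was level with EIF2AK2 in WT unwounded cells (27.4 ± 0.936 and 25.1 ± 2.33, overlapping) and fell below EIF2AK3 in GCN2KO unwounded cells (5.61 ± 0.388 against 9.09 ± 0.894).

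The share of EIF2AK4 in the summed per-length level of the 4 kinases fell from 19.3% (18.2% to 20.4%) in WT to 4.64% (3.90% to 5.09%) in GCN2KO unwounded cells, and from between 18.95% and 21.24% to between 4.339% and 5.571% after HDW (both exact permutation p = 0.00794, the smallest that 5 against 5 allow, two-sided, adjusted p = 0.0238 over 12 tests). Per kb of longest transcript the unwounded share was 27.98% to 30.78% in WT and 6.401% to 8.112% in GCN2KO cells. With either length this is the EIF2AK4 difference on the per-length scale, and it carries no test of the other kinases. The tests of the share are also among the 12 over which the sums and ratios below were adjusted. Per kb of merged exons, the summed level of the other 3 kinases was 52.8 in WT and 53.4 in GCN2KO unwounded cells (exact permutation p = 0.683, adjusted p = 0.745) and 48.7 and 48.3 after HDW (exact permutation p = 0.754, adjusted p = 0.754). Counted per kb of longest transcript, which gives EIF2AK3 more weight, the unwounded difference was 0.09 on the log2 scale and passed (exact permutation adjusted p = 0.0476). HDW lowered the sum by 0.12 on the log2 scale in WT (exact permutation adjusted p = 0.0476) and by 0.14 in GCN2KO cells (adjusted p = 0.0381). Neither call held with DESeq2 size factors (exact permutation adjusted p = 0.0571 and 0.0635) or without 1 library, the exceptions being WT HDW replicate 2 for the first and GCN2KO unwounded replicate 3 and GCN2KO HDW replicate 5 for the second (exact permutation adjusted p up to 0.0952 and 0.0635).

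**Figure D3:**
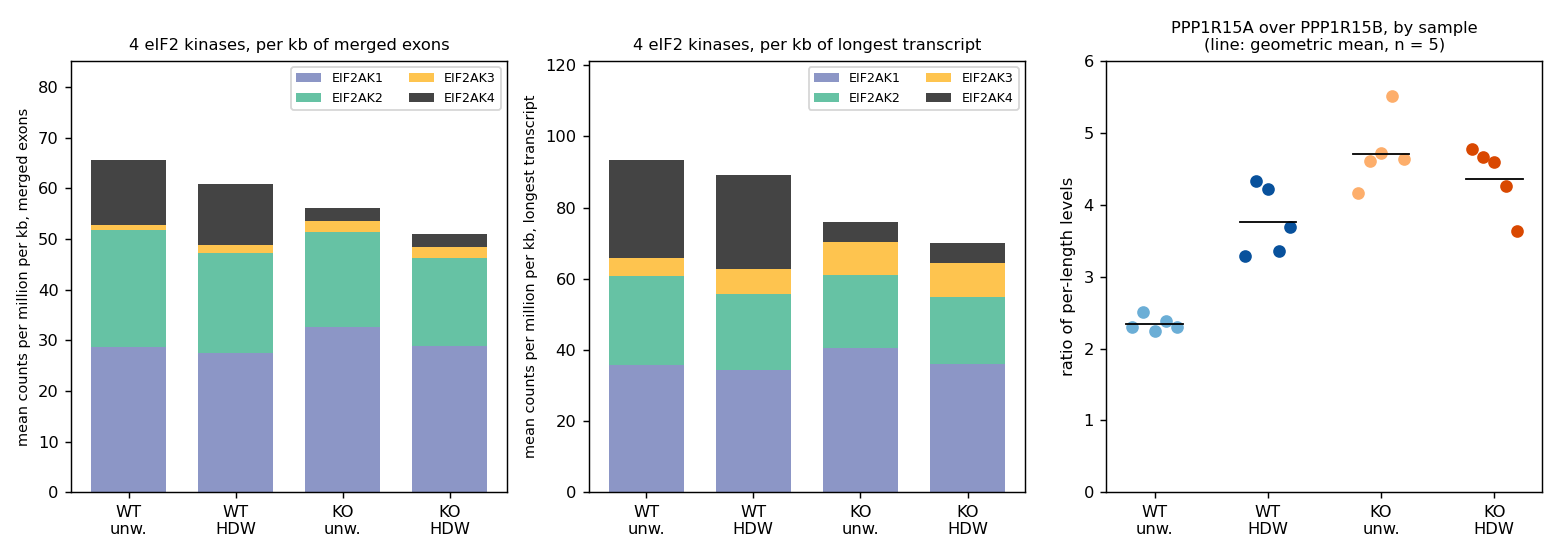
Stacked bars give the mean CPM per kb of the 4 eIF2 kinases in each group (n = 5), per kb of merged exons (left) and of the longest transcript (middle); points (right) give the ratio of the per-length levels of PPP1R15A and PPP1R15B in each sample, with the geometric mean as a line. The EIF2AK4 block shrinks in GCN2KO while the other blocks sum to 52.8 and 53.4 in unwounded cells on the left, and the ratio has geometric means of 2.34 and 4.71 in unwounded WT and GCN2KO cells, and of 3.75 and 4.36 after HDW.

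EIF2S1 (ENSG00000134001, chromosome 14), the mRNA of the shared substrate, was higher in GCN2KO cells in both conditions. It had 2760.3 to 3037.2 normalized read counts in WT unwounded and 3308.3, 3625.2, 4401.2, 3542.8 and 3861.7 in GCN2KO unwounded samples (log2 fold change 0.40, SE 0.073, edgeR adjusted p = 0.000169). After HDW, WT samples had 3014.6 to 3335.1 and GCN2KO samples 4251.1, 4093.2, 4040.0, 4343.4 and 3409.3 (0.36, SE 0.059, edgeR adjusted p = 7.32e-05). The genotypes did not overlap in either condition, with GCN2KO HDW replicate 5 nearest to WT. HDW raised EIF2S1 in WT by 0.13 (SE 0.037, edgeR adjusted p = 0.00775), with overlap and only in the fit of these 2 groups: with all 20 samples in 1 fit the edgeR adjusted p was 0.129, and with libraries thinned to the smallest total 0.0546.

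Among the other members the widest change was in GADD34 mRNA (PPP1R15A, ENSG00000087074, chromosome 19). WT unwounded samples had 1540.1, 1655.9, 1474.5, 1692.8 and 1669.4 normalized read counts. GCN2KO unwounded samples had 3520.9, 4517.3, 4386.3, 4953.2 and 4079.6, so that the lowest was more than any WT sample. The log2 fold change was 1.42 (SE 0.084, edgeR adjusted p = 6.1e-10), or 2.68-fold. HDW raised WT cells to 2699.3, 3690.4, 3449.8, 2843.6 and 3162.0 (0.98, SE 0.075, edgeR adjusted p = 5.28e-08), just under the fold threshold for a DE gene. It was past that threshold without WT HDW replicate 1 (1.03) or WT HDW replicate 4. GCN2KO cells after HDW had 5136.0, 4895.5, 4773.1, 4519.0 and 3622.9, overlapping the unwounded GCN2KO samples, with a response of 0.11 (95% interval -0.11 to 0.32, edgeR adjusted p = 0.463). The interaction was -0.88 (SE 0.13, edgeR adjusted p = 4.11e-05), the largest in size among the 10 members. PPP1R15A remained higher in GCN2KO after HDW (0.53, SE 0.097, edgeR adjusted p = 0.000196), where only GCN2KO replicate 5 overlapped the WT HDW samples.

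CReP mRNA (PPP1R15B, ENSG00000158615, chromosome 1) rose in all 4 pair comparisons, and by less. Unwounded cells averaged 1862 ± 83.1 (SD, n = 5) in WT and 2467 ± 138 in GCN2KO, as normalized read counts, and cells after HDW 2281 ± 48.8 and 2841 ± 80.8. The genotypes differed by 0.41 (SE 0.061, edgeR adjusted p = 2.15e-05) in unwounded cells and by 0.32 (SE 0.035, edgeR adjusted p = 1.9e-06) after HDW. HDW added 0.29 (SE 0.035, edgeR adjusted p = 6.16e-06) in WT and 0.21 (SE 0.059, edgeR adjusted p = 0.0204) in GCN2KO cells, with no overlap in any of the 4 comparisons. The GCN2KO response was lost without GCN2KO unwounded replicate 1 or any 1 of GCN2KO HDW replicates 1, 2 and 3 (edgeR adjusted p up to 0.0535), and with no filter on low counts (0.0824). The responses of the genotypes differed by -0.09 with a 95% interval of -0.22 to 0.05 (edgeR adjusted p = 0.369). PPP1R15B shares 5.6% of its exon bases with a lncRNA on the opposite strand.

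The ratio of PPP1R15A to PPP1R15B, per length, had a geometric mean of 2.34 in WT unwounded cells. It was 4.71 in GCN2KO unwounded cells, with no overlap (difference of 1.01 on the log2 scale, exact permutation p = 0.00794, adjusted p = 0.0238), and 3.75 in WT HDW cells, also with no overlap (0.68, exact permutation p = 0.00794, adjusted p = 0.0238). The GCN2KO HDW ratio of 4.36 did not pass against WT HDW (0.22, exact permutation p = 0.0873, adjusted p = 0.15) or against GCN2KO unwounded (-0.11, exact permutation p = 0.381, adjusted p = 0.457). The plot of the kinases and the phosphatase ratio shows that the ratio of WT unwounded samples was below that of each other sample. The composite tests share samples as the pair comparisons do.

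GCN1 (ENSG00000089154, chromosome 12), which carries the stalled-ribosome signal to GCN2, was not found to differ with its loss. The 5 WT unwounded samples had 5025.8, 4819.7, 5052.7, 5281.8 and 4741.3 normalized read counts, and GCN2KO unwounded samples 4586.1, 5656.2, 3527.6, 5234.8 and 3677.7. Those GCN2KO samples were widely spread, with replicates 3 and 5 lowest, so the interval of the difference was wide (-0.13, 95% interval -0.37 to 0.10, edgeR adjusted p = 0.307). After HDW the samples were closer together, at 6205.5 to 6919.5 in WT and 5919.4 to 6418.3 in GCN2KO (-0.07, 95% interval -0.16 to 0.02, edgeR adjusted p = 0.156). HDW raised GCN1 in WT by 0.36 (SE 0.040, edgeR adjusted p = 1.86e-06) and in GCN2KO by 0.45 (SE 0.12, edgeR adjusted p = 0.016), without overlap in either. The responses differed by 0.07 with a 95% interval of -0.19 to 0.33 (edgeR adjusted p = 0.736).

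IMPACT (ENSG00000154059, chromosome 18), the competitor of GCN2 for GCN1, was lower in GCN2KO cells. Unwounded, WT samples had 1695.2, 1962.8, 1830.7, 1847.0 and 1823.7 normalized read counts, and GCN2KO unwounded samples 1325.6, 1126.6, 1242.0, 1022.1 and 1228.4. The groups did not overlap (log2 fold change -0.62, SE 0.073, edgeR adjusted p = 1.52e-06). After HDW, WT samples had 1719.9 to 1784.2 and GCN2KO samples 854.9, 898.5, 889.9, 941.2 and 1160.7, with replicate 5 set apart above the others (-0.89, SE 0.069, edgeR adjusted p = 5.7e-08). It was the member with the largest decrease after EIF2AK4 in both conditions. HDW lowered IMPACT in GCN2KO cells (-0.31, SE 0.093, edgeR adjusted p = 0.0275), a call lost without any 1 of GCN2KO unwounded replicates 1, 3 and 5 or GCN2KO HDW replicates 1 to 4 (edgeR adjusted p up to 0.0738). In WT it was -0.06 (95% interval -0.14 to 0.01, edgeR adjusted p = 0.151), and passed without WT unwounded replicate 1 (edgeR adjusted p = 0.0441) or with library size alone (0.0262). The interaction of -0.27 did not pass (SE 0.10, edgeR adjusted p = 0.0623), but did without GCN2KO unwounded replicate 2 (edgeR adjusted p = 0.0458), GCN2KO unwounded replicate 4 (0.0228) or GCN2KO HDW replicate 5 (0.00398), and with libraries thinned to the smallest total (0.0158).

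DELE1 (ENSG00000081791, chromosome 5), which relays mitochondrial stress to HRI, was lower in unwounded GCN2KO cells and was not found to differ after HDW. Without wounding, WT samples had 1550.1, 1456.1, 1572.3, 1388.0 and 1519.1 normalized read counts, and GCN2KO unwounded samples 1263.1, 1171.1, 1214.8, 1196.1 and 1056.2, all below WT (-0.34, SE 0.066, edgeR adjusted p = 0.000265). HDW brought WT cells to 1164.2 to 1337.9 (-0.26, SE 0.046, edgeR adjusted p = 0.000225) and left GCN2KO cells at 1203.7 to 1303.4 (0.08, 95% interval -0.06 to 0.21, edgeR adjusted p = 0.398). After HDW the genotypes overlapped (-0.02, 95% interval -0.12 to 0.08, edgeR adjusted p = 0.742). The responses to HDW differed between the genotypes by 0.32 (SE 0.078, edgeR adjusted p = 0.00348).

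Over all 10 genes, the order of per-length levels in WT unwounded cells ran from EIF2AK1 and EIF2AK2 through EIF2S1 (18.7 ± 0.724, SD, n = 5), GCN1 (17.95 ± 0.766) and PPP1R15A (16.3 ± 0.957) to IMPACT (13.01 ± 0.675), EIF2AK4, DELE1 (8.68 ± 0.435), PPP1R15B (6.94 ± 0.31) and EIF2AK3. EIF2S1 and GCN1, GCN1 and PPP1R15A, and IMPACT and EIF2AK4 overlapped. PPP1R15A moved from rank 5 to rank 1 in each other group, at 32.1 ± 4.17 in WT cells after HDW, and at 43.5 ± 5.4 and 46.5 ± 5.92 in GCN2KO cells unwounded and after HDW. In WT HDW cells it overlapped EIF2AK1 (27.6 ± 0.809), and in GCN2KO cells it did not. Per kb of longest transcript, EIF2AK1 ranked above PPP1R15A in WT HDW cells, with overlap. With that length PPP1R15A (37.66 to 52.98) also overlapped EIF2AK1 (39.33 to 42.49) in GCN2KO unwounded cells, and did not in GCN2KO cells after HDW.

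Other genes of the pathways were described by 7 lists of 66 genes in all, each gene being tested among all genes counted. Over all genes tested, 33.4% were higher, 33.1% lower and 16.4% DE genes between the unwounded genotypes, 35.9% higher and 35.8% lower after HDW, 26.1% higher with HDW in WT, 11.9% higher and 10.8% lower with HDW in GCN2KO cells, and 12.5% had a negative interaction. PERK regulators and the other ER stress sensors (HSPA5, DNAJC3, ERN1, ATF6, XBP1, EDEM1 and HERPUD1) were higher in unwounded GCN2KO cells in 7 of 7 genes, with a median log2 fold change of 1.45 beside 0.00 over all genes. HERPUD1, of ER-associated degradation, rose by 2.50 (SE 0.16, edgeR adjusted p = 1.41e-09), the chaperone BiP (HSPA5) by 2.30 (SE 0.14, edgeR adjusted p = 1.2e-09), and DNAJC3, the PERK and PKR inhibitor p58IPK, by 1.495 (SE 0.11, edgeR adjusted p = 1.03e-08). The sensor IRE1α (ERN1) rose by 1.45 (SE 0.099, edgeR adjusted p = 2.93e-09) and its target XBP1 by 1.33 (SE 0.098, edgeR adjusted p = 7.43e-09). After HDW 6 of 7 were higher in GCN2KO (median 0.81), with BiP at 1.04 (SE 0.080, edgeR adjusted p = 5.29e-08). HDW raised 7 of 7 in WT (median 0.78) and 0 of 7 in GCN2KO cells by edgeR or DESeq2 (median 0.00, 1 of 7, EDEM1, at an unadjusted p under 0.05), and the interaction was lower in 7 of 7 (median -0.67). By the correlation of log2 CPM over the 20 samples, DNAJC3 (r = 0.982) was among the 3 genes most like EIF2AK3, and HERPUD1 (r = 0.985) among the 3 most like PPP1R15A. EIF2AK3 and PPP1R15A are not in the list.

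ISR effectors were higher in unwounded GCN2KO cells in 12 of 14 genes and lower in 1 (median 1.11), 10 being DE genes. The pseudokinase TRIB3 rose by 3.69 (SE 0.19, edgeR adjusted p = 1.17e-10), the transcription factors ATF3 by 3.24 (SE 0.15, edgeR adjusted p = 5.89e-11) and CHOP (DDIT3) by 2.85 (SE 0.17, edgeR adjusted p = 6.97e-10), CHAC1, which degrades glutathione, by 2.92 (SE 0.17, edgeR adjusted p = 3.93e-10), and asparagine synthetase (ASNS) by 2.12 (SE 0.14, edgeR adjusted p = 2.65e-09). IBTK, CEBPG, SESN2 and VLDLR rose by 1.41, 1.14, 1.09 and 1.03, and ATF5, a factor of the same family as ATF4, was lower (-1.10, SE 0.079, edgeR adjusted p = 5.2e-09). ATF4 mRNA rose by 0.55 (SE 0.077, edgeR adjusted p = 9.84e-06). After HDW 7 of 14 were higher and 4 lower in GCN2KO (median 0.23), with ATF3 at 2.64 (SE 0.17, edgeR adjusted p = 1.28e-08) and ASNS, now lower, at -0.31 (SE 0.076, edgeR adjusted p = 0.00207). HDW raised 10 of 14 in WT (median 0.59) and 0 of 14 in GCN2KO cells by edgeR or DESeq2, also at an unadjusted p under 0.05; 4 were lower there by edgeR and 6 by DESeq2 (median -0.19), and the interaction was lower in 11 of 14. PPP1R15A, itself a known ISR target, is not counted in this list.

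The remaining lists showed no single direction, and in those for eIF2 and for GCN2 partners the counts between the unwounded genotypes lay near those shares. Of eIF2 and eIF2B subunits and related factors, 3 of 11 were higher and 3 lower in unwounded GCN2KO cells (median -0.06), with EIF2B2, of the guanine nucleotide exchange factor that phosphorylated eIF2 inhibits, at 1.19 (SE 0.083, edgeR adjusted p = 3.46e-09). EIF2S2, the β subunit of eIF2, rose by 0.72 (SE 0.069, edgeR adjusted p = 1.48e-07) and EIF2S3, the γ subunit, had -0.24 (SE 0.085, edgeR adjusted p = 0.0201), so that the eIF2 subunits did not move together. Of phosphatase 1 catalytic subunits and cofactors, 3 of 5 were higher and 1 lower. The catalytic subunits PPP1CA, PPP1CB and PPP1CC rose by 0.54, 0.66 and 0.21. Actin (ACTB), a cofactor of the PPP1R15 complexes, was the lower gene in unwounded GCN2KO cells (-0.28, SE 0.077, edgeR adjusted p = 0.00393). After HDW it was lower by more, without overlap (-0.95, SE 0.080, edgeR adjusted p = 1.28e-07). HDW raised ACTB by 1.27 in WT (SE 0.069, edgeR adjusted p = 1.52e-09) and by 0.62 in GCN2KO cells (SE 0.081, edgeR adjusted p = 0.000423).

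Of 15 partners of GCN2 and GCN1 and sensors of stalled ribosomes, 6 were higher and 5 lower in unwounded GCN2KO cells (median -0.07). EDF1 and the ubiquitin ligase RNF14 were higher, by 0.99 (SE 0.077, edgeR adjusted p = 1.34e-08) and 0.97 (SE 0.11, edgeR adjusted p = 6.24e-07). The ribosomal stalk protein RPLP0, known to activate GCN2, was lower (-0.47, SE 0.088, edgeR adjusted p = 0.000166). Of 8 regulators of PKR, 2 were higher and 4 lower (median -0.24), the double-stranded RNA helicase DHX9 at -0.67 (SE 0.072, edgeR adjusted p = 5.34e-07). Of 6 genes of the mitochondrial arm of HRI, 4 were higher and 1 lower (median 0.30), with the chaperone HSPA9 at 1.35 (SE 0.061, edgeR adjusted p = 3.7e-11) and prohibitin PHB2 at -1.11 (SE 0.089, edgeR adjusted p = 1.94e-08). OMA1, the protease that cleaves DELE1, had -0.18 (95% interval -0.37 to 0.01, edgeR adjusted p = 0.0814).

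**Figure D4:**
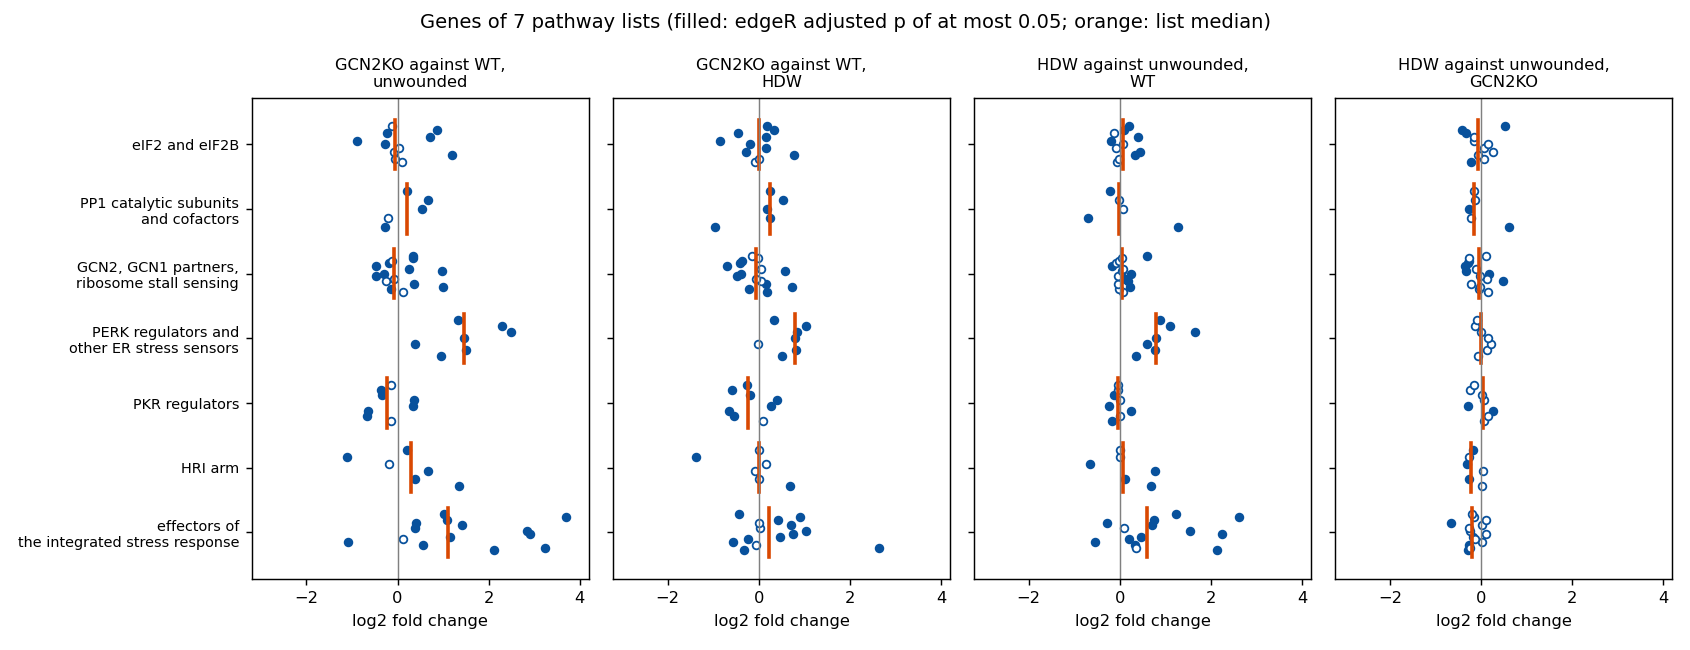
Log2 fold changes (x axis) of the genes of 7 pathway lists (rows) in the 4 pair comparisons (panels), with filled points for genes at an edgeR adjusted p of at most 0.05 and orange bars at list medians. The ER stress list has its median at 1.45 in the first panel and 0.00 in the last, while the lists for eIF2 and for GCN2 partners straddle 0.

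Each member was set beside the genes of its own chromosome. For 9 of the 10 members the chromosome median of GCN2KO against WT in unwounded cells was between -0.07 and 0.03. For DELE1 it was 0.35 over 694 genes of chromosome 5, with 70.6% above 0, and 0.36 over 720 genes after HDW, with 73.5% above 0. DELE1, at -0.34 and -0.02, lay below the lower quartile of its chromosome in unwounded cells (-0.09), and near it after HDW (-0.02). Within 5 Mb of DELE1 the median was 0.16 over 94 genes in unwounded and 0.34 over 95 genes in HDW cells. EIF2AK3, EIF2AK4, EIF2S1, PPP1R15A and IMPACT lay outside the quartiles of their chromosomes in both conditions, whose medians lay between -0.10 and 0.03. By definition as many genes lie outside the quartiles as inside, so this does not set these members apart. Among genes within 5 Mb, EIF2S1 lay inside the quartiles, at 0.3957 in -0.448 to 0.548 unwounded and 0.3608 in -0.309 to 0.369 after HDW. Chromosome copy number was not tested.

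**Figure D5:**
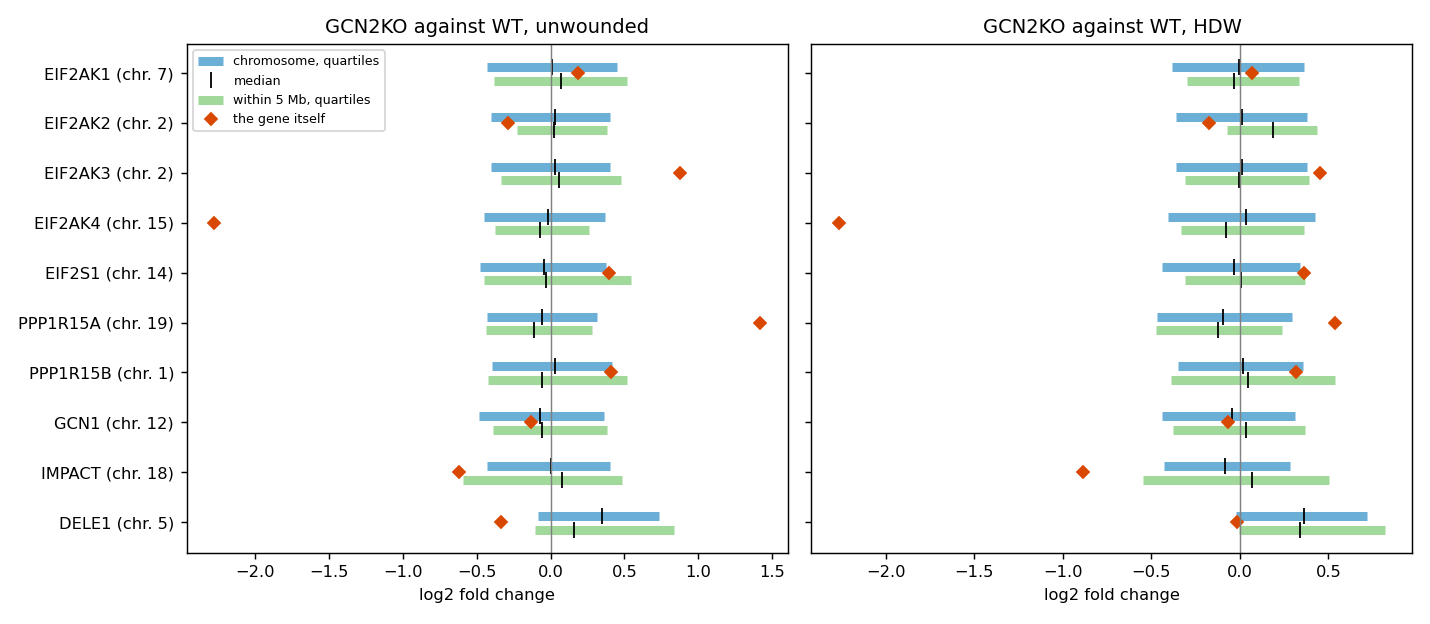
Log2 fold change of GCN2KO against WT (x axis) of each gene (orange diamond) beside the quartile range and median of the other tested genes on its chromosome (blue) and within 5 Mb (green), in unwounded (left) and HDW (right) cells. The chromosome 5 bars sit to the right of 0, at medians of 0.35 and 0.36, with DELE1 to their left, and the other chromosome medians lie near 0.

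By the correlation of log2 CPM over the 20 samples, given as a description, the genes most like EIF2AK4 were PLTP (0.991), IVNS1ABP and TENM2 (0.99 each), and those most like IMPACT were DHRS3 (0.99), PCBD1 (0.987) and LRRCC1 (0.986). EIF2AK1 was most like EIF1 (0.939), EIF2S1 like AMD1 (0.968), PPP1R15B like TMEM33 (0.98), GCN1 like ANKRD52 (0.982) and DELE1 like ZNF488 (0.931). PPP1R15A was most like SLC35B1 (0.988) and EIF2AK3 most like GZF1 (0.984). The 20 samples fall into 4 groups, so the points share genotype and treatment.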

How the data were processed

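RNA-seq libraries were made from 20 samples. The authors deposited raw read counts per gene, made with Trimmomatic, STAR and featureCounts against GRCh38 per the labels (strand setting not given in the sources used here). Members and lists were chosen with earlier results of these data known. The named genes were all members, the list genes that were DE genes in any comparison or otherwise the 2 with the smallest adjusted p, and the 3 genes most like each member; ATF4, EDEM1, EIF2S2, EIF2S3, OMA1, PPP1CA, PPP1CB, PPP1CC and RPLP0 were named for their role after their values were seen. Each comparison was fitted to the 2 groups it concerns (the interaction to all 20 samples) with edgeR 4.0.16 (quasi-likelihood, TMM, filterByExpr with a minimum count of 10 and total of 15), in R 4.3.3, with Benjamini-Hochberg adjustment over all genes. Of 57500 gene identifiers 56410 matched GENCODE 44, which gave the symbols, positions and lengths. Sums and ratios were compared by two-sided exact permutation tests, adjusted over 12 tests. On simulated data, edgeR recovered 100 of 100 genes changed by 0.75 between GCN2KO and WT unwounded cells (15180 genes) and 97 of 100 for the interaction (16260 genes). The changed genes were well counted and all others were left unchanged, unlike in the data. No change smaller than 0.75 was simulated, so recovery of the smaller differences reported for members was not tested. Alternatives were DESeq2 1.42.0, other scalings and filters, thinned libraries, 1 fit of all samples, another gene length, a replicate block and leaving out each library. Same-numbered samples did not deviate together, so the main fit has no block. Coefficients of variation between replicates were 0.0587 to 0.108. One gene that the rule for named genes would name is not reported here.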

Additional observations from a re-analysis of the deposited data

Results flagged for a closer look

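GCN1 in WT HDW replicate 4 stood apart from its group, at 6919.5 normalized read counts with the nearest sample at 6368.1. IMPACT in GCN2KO HDW replicate 5 stood apart as well, at 1160.7 with the nearest sample at 941.2. Of 40 groups of 5 samples examined these were the 2 with so wide a gap by Dixon's ratio, and chance gives about 1 in 20.

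The edgeR interaction over 20 samples passed in 3 of the 10 genes, against 23.7% of all genes tested. It was -0.42 for EIF2AK3 (adjusted p = 0.00584), -0.88 for PPP1R15A (adjusted p = 4.11e-05) and 0.32 for DELE1 (adjusted p = 0.00348). In WT cells the 5 HDW samples did not overlap the 5 unwounded samples in any of these genes, as in 36.9% of all genes tested, and in GCN2KO cells they did.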

How the results depend on the processing

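Of 390 log2 fold changes of the 10 genes under other settings, 372 kept their direction and side of the threshold, 8 lost the call, 7 gained it and 3 turned sign, and of 600 with 1 library left out these counts were 565, 18, 7 and 10. The values that turned sign were uncalled and near 0. They were DELE1 between genotypes after HDW (0.0149 with library size alone, 0.0068 with thinned libraries) and the interaction of EIF2S1 (0.0352 with library size alone). The summed level of the other 3 kinases between genotypes was -0.0165 unwounded and 0.0213 after HDW with library size alone, and 0.0928 (passed) and 0.04 per kb of longest transcript. For HDW it was -0.12 in WT and -0.15 in GCN2KO with DESeq2 size factors, -0.16 and -0.12 with library size alone, and in WT -0.0695 per kb of longest transcript, none of which passed.

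With 1 library left out, 9 of 10 genes passed in each fit between genotypes unwounded (9 to 9), 6 to 7 after HDW, 7 to 8 for HDW in WT, 1 to 4 for HDW in GCN2KO and 3 to 4 for the interaction. The kinase sum ran from -0.0105 to 0.0369 and from -0.0379 to 0.0152 between genotypes, and from -0.1428 to -0.0962 and -0.171 to -0.1172 for HDW. Among uncalled genes that turned sign, DELE1 between genotypes after HDW ran from -0.0456 to 0.0052, EIF2AK4 for HDW in GCN2KO from -0.061 to 0.002, and the interactions of EIF2AK4 from -0.0192 to 0.0508, of EIF2S1 from -0.0742 to 0.0381 and of GCN1 from -0.0042 to 0.1593.

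For HDW in GCN2KO, 2 genes passed with no filter and 1 with the replicate block, against 4. Deviations of same-numbered samples from their group means correlated by 0.0228, 0.0332, 0.0108 and -0.109 on average, so the numbers are not taken to pair the samples. With the replicate block, EIF2AK2 passed between genotypes after HDW (-0.18, edgeR adjusted p = 0.0334), and for HDW in GCN2KO EIF2AK1 (0.131), PPP1R15B (0.0701) and IMPACT (0.0521) did not. In the paired composite tests, where 5 pairs cannot go below an exact p of 0.0625, the values were -14.6769 and -15.0065 points for the EIF2AK4 share, -0.12 and -0.14 for the kinase sum and 1.01 and 0.68 for the phosphatase ratio. Over all genes, DE genes numbered 3920 with no filter and 1630 at a mean of at least 50 counts against 2521 unwounded, 3681 and 1328 against 2368 after HDW, 998 and 371 against 640 for HDW in WT, and 199 and 40 against 106 for HDW in GCN2KO, and 280 against 547 for the interaction at the higher filter. Genes past the adjusted p for HDW in GCN2KO numbered 2121 with the block, 5576 in 1 fit of all samples and 3586 as reported, and 2070 to 4517 with 1 library left out, the widest moves coming without GCN2KO unwounded replicate 5 or GCN2KO HDW replicates 2 and 3. The causes were not tested. With libraries thinned to the smallest total, EIF2S1 lost its call for HDW in WT (edgeR adjusted p = 0.0546) and the interaction of IMPACT passed (0.0158).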
